A study of Homo sapiens with 10 samples.

Results

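The reprogramming factor genes of the MYC and KLF families were examined in a list of nucleosome positions from human induced pluripotent stem cells (hiPSCs). The 6 members, MYC, MYCN, MYCL, KLF2, KLF4 and KLF5, were chosen by name, and each locus was taken as the gene body with 10 kb on each side. They are 6 of the 19971 protein-coding genes with a canonical transcription start site (TSS) in GENCODE release 44, and their loci held 901 of the 12921589 positions in the list. All samples came from hiPSC line PB010.5 with a FUCCI reporter of the cell cycle inserted at EEF2, so this allele was shared and no unmodified control was included. Permeabilised cells were digested for 5 min with MNase, a nuclease that cuts the DNA between nucleosomes, at 10, 6, 3, 1 or 0.5 U. Each amount of MNase gave 1 library, and each library was sequenced with 150-bp and again with 50-bp paired-end reads, which makes 10 samples. The list pools libraries and gives neither a value per MNase amount nor a replicate, so no comparison between amounts was possible and all values below are descriptions without a p-value. The identity of the cells could not be checked against marker genes, since the list holds no expression.

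MYC, MYCN and MYCL are basic helix-loop-helix leucine zipper proteins that pair with MAX and bind the E-box CACGTG. KLF2, KLF4 and KLF5 are zinc finger proteins that bind GC-rich and CACCC-type sequences. KLF4 and MYC belong to the factor cocktail, with OCT4 and SOX2, that turns somatic cells into pluripotent ones, and their relatives can stand in for them in that role. At a typical active promoter the DNA just upstream of the TSS is poor in nucleosomes and lies between a −1 and a +1 nucleosome.

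Every position in the list is an interval of 140 bp with 1 score given by the authors. The score is unnamed there and was taken as a signal height. All but 0.000155% of the scores lay within 0.01 steps of a multiple of 1.23, called a step, and the median over the list was 14.8. Because scores varied with GC content, each score was ranked among the positions of the same chromosome with the same number of G and C bases, and this rank is called the GC-matched percentile. Where fewer than 200 positions had that number, those with neighbouring numbers were added, which applied to 15 positions of the loci, among them all 3 in the 1 kb around the KLF4 TSS, 3 of 6 at KLF5 and 2 of 6 at MYCL. A position is called high at GC-matched percentile 90 or more and low below 10. Regions were compared with windows of the same length and chromosome whose GC content was within 2 percentage points, and the SD of the windows' log2 ratios is given as their spread. The pair of positions at a TSS was the nearest midpoint downstream, counted from the TSS on, and the nearest upstream, and their distance is called wide at 300 bp or more. The reads behind a score are unknown, and a stretch without a position may hold no nucleosome or one that was not called, which cannot be told apart here.

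The 250 bases before the canonical TSS are shown for 4 members to set the stretch at KLF4, which held no called position, beside others that were partly covered. All are from RefSeq (GRCh38.p14), in the direction of transcription and ending at the base before the TSS, with capitals for bases outside every called position. Promoters of 5 of the 6 members were taken from the RefSeq table. MYC was left out of this step beforehand, so its promoter was not looked up. The stretch of MYCL, with 29 exonic bases, is not printed.
KLF4, minus strand, chr9:107489770-107490019: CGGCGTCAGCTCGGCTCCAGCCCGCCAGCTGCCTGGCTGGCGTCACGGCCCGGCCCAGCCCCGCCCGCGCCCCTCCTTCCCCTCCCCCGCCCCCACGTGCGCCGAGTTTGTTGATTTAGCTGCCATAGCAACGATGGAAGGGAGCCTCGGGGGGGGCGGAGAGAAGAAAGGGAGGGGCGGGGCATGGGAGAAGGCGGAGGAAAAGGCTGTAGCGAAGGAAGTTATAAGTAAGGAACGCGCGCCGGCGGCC
MYCN, plus strand, chr2:15940300-15940549: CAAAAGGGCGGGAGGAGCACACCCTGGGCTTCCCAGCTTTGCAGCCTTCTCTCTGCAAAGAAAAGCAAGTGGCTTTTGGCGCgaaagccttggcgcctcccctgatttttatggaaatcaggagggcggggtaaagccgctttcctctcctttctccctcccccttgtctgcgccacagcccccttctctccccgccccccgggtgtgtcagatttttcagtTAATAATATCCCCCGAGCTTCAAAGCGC
KLF2, plus strand, chr19:16324576-16324825: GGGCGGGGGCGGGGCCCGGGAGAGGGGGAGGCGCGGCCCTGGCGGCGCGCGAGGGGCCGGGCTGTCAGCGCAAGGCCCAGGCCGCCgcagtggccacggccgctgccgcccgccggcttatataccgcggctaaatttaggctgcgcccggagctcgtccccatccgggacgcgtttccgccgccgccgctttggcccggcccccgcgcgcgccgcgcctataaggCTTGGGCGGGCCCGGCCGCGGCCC
KLF5, plus strand, chr13:73058755-73059004: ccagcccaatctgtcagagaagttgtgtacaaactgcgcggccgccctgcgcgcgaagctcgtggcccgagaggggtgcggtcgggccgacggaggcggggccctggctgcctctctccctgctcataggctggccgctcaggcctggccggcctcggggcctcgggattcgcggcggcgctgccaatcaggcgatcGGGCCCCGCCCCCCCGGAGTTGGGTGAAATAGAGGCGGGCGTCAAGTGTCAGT
At KLF4 all 250 bases lay outside called positions, against 110 at MYCN, 110 at KLF2, 53 at KLF5 and 166 at MYCL. The GC content of the 250 bases was 69.2% at KLF4, 57.2% at MYCN, 80% at KLF2 and 70.8% at KLF5. These 250 bases and the 50 that follow were searched on both strands for the E-box, for the GC-box (letters GGGCGG) and for the CACCC element, and offsets count the TSS as 0. KLF4 held 1 E-box, with its first base at -157, and 4 GC-boxes, at -190, -164, -97 and -76. Since all 250 bases were uncovered, none of these matches could lie inside a called position. MYCN held 3 GC-boxes, of which 2 lay inside a position, and 3 CACCC elements, of which 2 did. KLF2 held 6 GC-boxes, 1 of them inside a position. KLF5 held 2 GC-boxes and 2 CACCC elements, with 1 of each inside. MYCL held 2 GC-boxes, both outside positions. Over the 35116 promoters of the same length in the table, 7.26% held an E-box, 45.0% a GC-box and 59.9% a CACCC element. GC-boxes and CACCC elements on opposite strands can share a few bases, and a match describes letters, not a bound site.

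**Figure D1:**
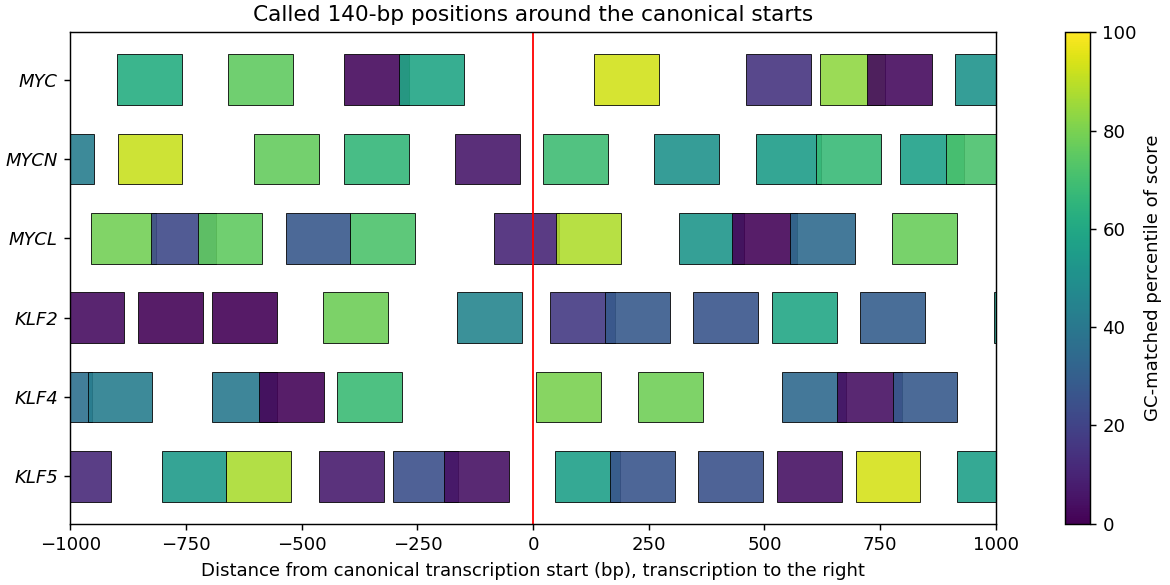
Called 140-bp positions within 1000 bp of the 6 canonical TSSs, with transcription to the right, distance from the TSS in bp on the x axis and colour for the GC-matched percentile of the score. The flanking midpoints are 420 bp apart at MYC and 430 bp at KLF4, and 135 to 240 bp apart at the other 4 members.

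The interval between the flanking positions ranged from 135 to 430 bp over the 6 TSSs. It was wide at MYC and KLF4 and narrow at MYCL, where a position lay across the TSS. Wide distances were present at 2 of 6 members, beside 30.5% of all protein-coding TSSs, so their share is near the background. A high downstream position was present at 1 of 6 (MYC), beside 21.1% of all TSSs. This count depended on the setting. It was 0 with the most 5′ TSS of each gene (19.7% of all TSSs) and 2 with GC taken over 200 bp (20.9%). By chromosome percentile without GC matching it was 3 (38%). A low upstream position was present at 2 of 6 (MYCN and KLF5), beside 18.8%. The TSS itself was covered by a position at 1 of 6 (MYCL), beside 49.9%.

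MYC encodes the most widely expressed factor of its family. It lies on the plus strand of chromosome 8, from 127735434 to 127742951 (ENSG00000136997.22), with its canonical TSS at 127736231. The downstream position, from 127736362 to 127736501 in the 5′UTR, had a score of 38.2 (31 steps) and was centred 201 bp from the TSS. Its upstream partner, from 127735942 to 127736081, had a score of 23.4 and was centred at -219 bp. The pair thus lay nearly symmetrically about the TSS, 420 bp apart. Among 62 TSSs of the same chromosome with similar GC content in the surrounding 1 kb (58.7% at MYC), the median distance was 240 bp with quartiles of 182.5 and 307.5 bp. The distance at MYC was at percentile 92.7 of them, and 30.6% of them were wide. The downstream score was at GC-matched percentile 93.0, the highest of the 6 members, and the upstream score at 58.7. Among the downstream scores of the 62 TSSs it was at percentile 87.1 for MYC.

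MYC has annotated TSSs on both sides of the canonical one, and only those nearest to it lay in the same interval. The 3 most upstream transcripts start from -797 to -712 bp, in an interval of 240 bp between midpoints, and the next one, at -572 bp, in one of 250 bp. The TSSs at -185, -147 and -11 bp fell into the same 420-bp interval as the canonical TSS. From 727 bp downstream on, the 6 remaining transcripts started within intervals of 100 to 190 bp.

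KLF4 (ENSG00000136826.15), the KLF member of the classic reprogramming cocktail, lies on the minus strand of chromosome 9 from 107484852 to 107490482, with its canonical TSS at 107489769. Its downstream position, from 107489622 to 107489761, had its centre at 77 bp, with a score of 25.9. The upstream one, from 107490052 to 107490191, was centred at -353 bp, also with a score of 25.9. In contrast to MYC, the uncovered DNA between them therefore lay almost wholly upstream of the TSS, over the sequence shown above. This distance was at percentile 94.8 of 134 TSSs with similar GC content, whose median was 250 bp and of which 29.9% were wide. Both scores were unexceptional for their GC content, at GC-matched percentiles 80.0 and 68.3. With upstream midpoints at -219 and -353 bp, MYC and KLF4 were the 2 members with no midpoint in the 200 bp upstream of the TSS. This was the case at 26.7% of all protein-coding TSSs. A further KLF4 transcript that starts at -713 bp had 270 bp between its flanking midpoints.

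MYCN, the family member known for its amplification in neuroblastoma, lies on the plus strand of chromosome 2 from 15940550 to 15947007 (ENSG00000134323.13). The downstream position, from 15940572 to 15940711 in the 5′UTR, was centred at 92 bp with a score of 25.9 and GC-matched percentile 68.9. The upstream position, from 15940382 to 15940521, was centred at -98 bp with a score of 9.87 and GC-matched percentile 6.27. The pair was 190 bp apart, against a median of 240 bp over 218 TSSs of similar GC content, where the distance was at percentile 27.5. The position upstream of the MYCN TSS was thus close to it but low in score for its GC content. Among the upstream scores of the 218 TSSs it was at percentile 17.9.

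KLF5 (ENSG00000102554.14), a factor of epithelial and pluripotent cells, lies on the plus strand of chromosome 13 from 73054976 to 73077541, with its canonical TSS at 73059005 inside the annotated gene. Here too the upstream position was low. It ran from 73058812 to 73058951, centred at -123 bp, with a score of 7.40 (6 steps) and GC-matched percentile 4.48. Against 58 TSSs of similar GC content on the chromosome, this upstream score was at percentile 4.31, where their median was 16.0. The downstream position, from 73059052 to 73059191, was centred at 117 bp with a score of 23.4 and GC-matched percentile 56.3. The distance of 240 bp was close to the median of 235 bp over the same TSSs. At the most 5′ KLF5 TSS, at -4029 bp, a position of score 23.4 covered the TSS and the next midpoint followed after 470 bp.

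KLF2 (ENSG00000127528.6), known from endothelial and lymphoid cells and from naive pluripotency, lies on the plus strand of chromosome 19 from 16324826 to 16328685. It was the member with the weakest downstream position. That position, from 16324862 to 16325001, was centred at 106 bp with a score of 13.6 (11 steps) and GC-matched percentile 16.8. The upstream position, from 16324662 to 16324801, was centred at -94 bp with a score of 19.7 and GC-matched percentile 45.4. KLF2 was the only one of the 6 where the upstream score was above the downstream one, with equal scores at KLF4. The distance of 200 bp was at percentile 34.4 of 64 TSSs of similar GC content.

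MYCL (ENSG00000116990.12), the least studied MYC paralogue and also active in reprogramming, lies on the minus strand of chromosome 1 from 39895428 to 39902256, with its canonical TSS at 39901917. The upstream position, from 39901862 to 39902001, lay across the TSS, centred at -15 bp, with a score of 8.64 and GC-matched percentile 10.8. The downstream position, from 39901727 to 39901866, followed at 120 bp with a score of 30.8 and GC-matched percentile 88.0. At 135 bp the midpoints were so close that the intervals overlapped by a few bases, and the distance was at percentile 10.7 of 145 TSSs of similar GC content (median 230 bp). A transcript starting at -339 bp also had its TSS covered, in an interval of 140 bp.

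**Figure D2:**
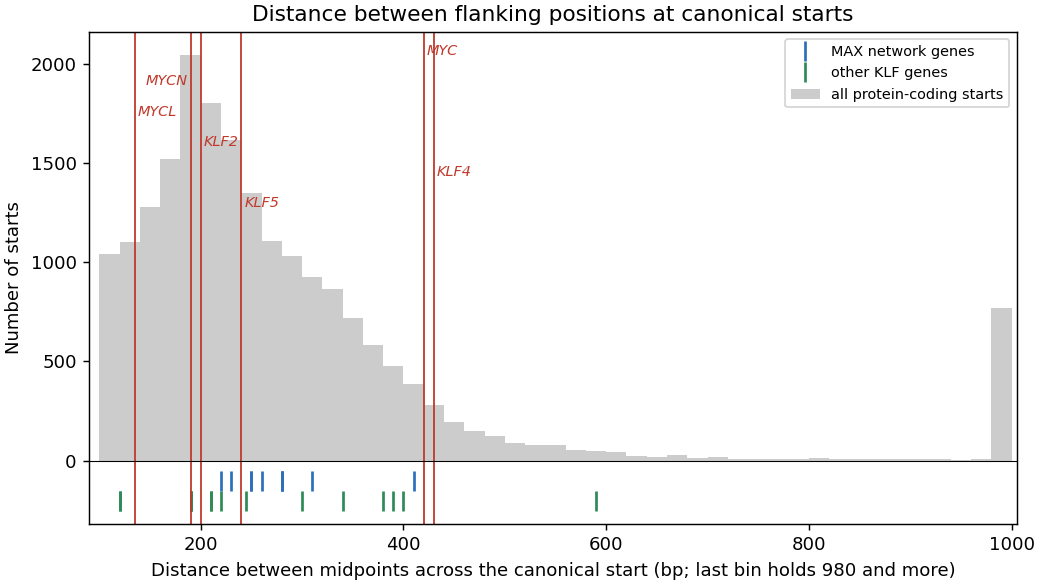
Distance in bp across the canonical TSS, from midpoint to midpoint (x axis), and number of protein-coding TSSs (y axis, bins of 20 bp), with the 6 members as red lines and the MAX network and other KLF genes as ticks under the axis. MYC at 420 bp and KLF4 at 430 bp lie at percentiles 89.7 and 90.4 of all TSSs, and MYCL at 135 bp lies at percentile 10.6.

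Relatives of the 6 members gave a similar range. Over the members the median distance was 220 bp, over 10 genes of the MAX network it was 270 bp, and over the 15 other KLF genes it was 220 bp. The MAX network list held MAX, the partner of MYC, antagonists of MYC, and also MLX, MLXIP and MLXIPL. All 19971 protein-coding TSSs had a median of 230 bp. On single autosomes the median distance was 228 bp ± 7.14 and the wide share 29.4% ± 2.62 (SD, n = 22 autosomes). Wide distances were present at 2 of the 10 MAX network genes, MAX itself (410 bp) and MLXIP (310 bp), a partner of MLX. The narrowest of that list were MXD3 (220 bp) and MXD4 (230 bp), both repressors that pair with MAX. Of the other KLF genes 6 of 15 were wide, led by KLF9 (590 bp) and KLF8 (400 bp), which lies on chromosome X, while KLF1, the erythroid factor, and KLF3 had the narrowest distance (120 bp each). A position covered the TSS at 8 of these 15 genes, near the 49.9% of all protein-coding TSSs. It did so at 1 of the 10 MAX network genes and at 1 of the 6 members.

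The downstream scores of these lists were as varied. The downstream position was high at 3 of the 10 MAX network genes and at 2 of the 15 other KLF genes, beside 21.1% of all TSSs. In the MAX network it was highest for its GC content at MXI1 (GC-matched percentile 96.7) and MXD4 (92.5) and lowest at MNT (21.1) and MLXIP (45.8). Among the other KLF genes it was highest at KLF1 (98.2) and KLF9 (94.9) and lowest at KLF10 (5.02) and KLF16 (8.30). The median GC-matched percentile of the downstream position was 74.4 over the members, 75.02 over the MAX network, 57.2 over the other KLF genes and 62.8 over all TSSs. For the upstream position the medians were lower, at 28.1, 36.0, 32.6 and 42.9 in the same order. Low upstream positions were present at 3 of 10 MAX network genes and 4 of 15 other KLF genes, beside 18.8% of all TSSs.

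**Figure D3:**
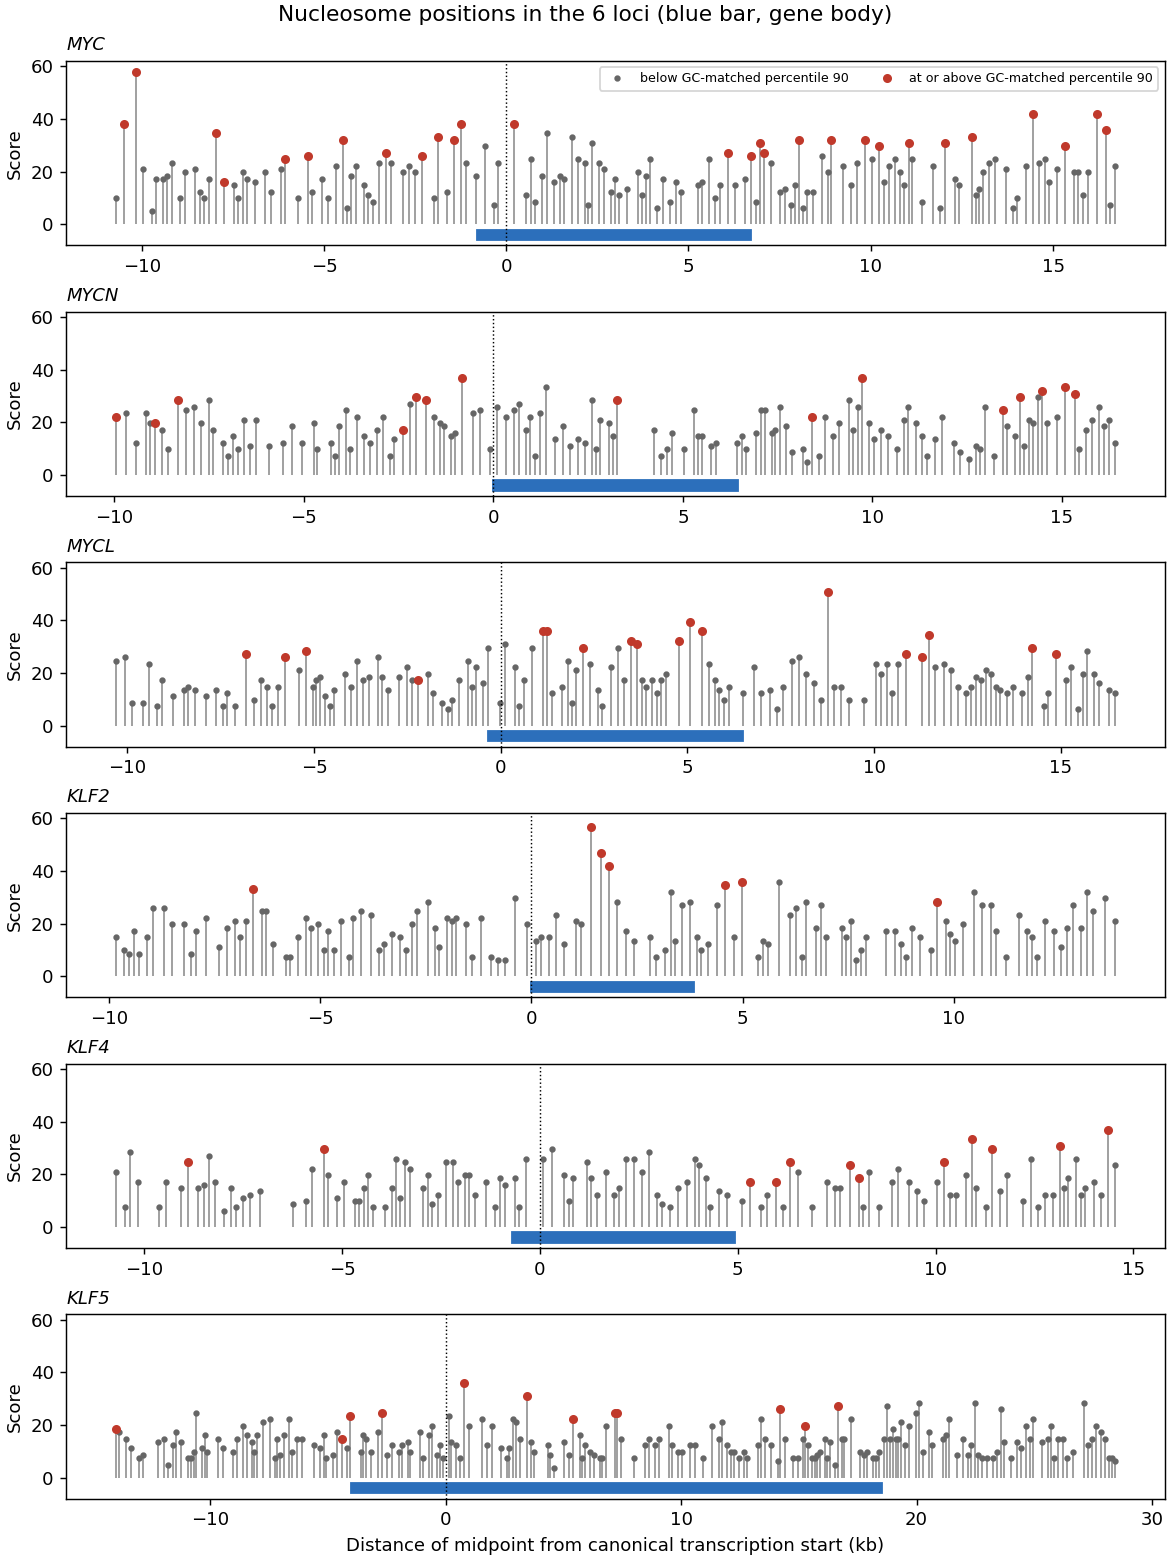
Score of every position (y axis) against the distance of its midpoint from the canonical TSS in kb (x axis) in the 6 loci, with high positions in red and the gene body as a blue bar. At MYC 25 of the 28 high positions lie in the flanks, and at KLF2 the 3 tallest positions stand side by side in the gene.

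Along the whole loci, high positions were most frequent at MYC. Of its 152 positions 28 were high (18.4%), beside 9.93% of all positions in the list. The counts were 15 of 143 at MYCN (10.5%), 18 of 143 at MYCL (12.6%), 7 of 132 at KLF2 (5.30%), 12 of 127 at KLF4 (9.45%) and 12 of 204 at KLF5 (5.88%). MYCN and KLF4 were therefore near the share of the list, and KLF5 below it. KLF2 was below it too, but with GC content taken over 200 bp it had 13 high positions of 132, beside 9.89% of the list, and at percentile 95 it had 6, where 4.95% of the list passed. The median GC-matched percentile was 62.9 at MYC, 53.4 at MYCN, 48.7 at MYCL, 47.9 at KLF2, 48.7 at KLF4 and 40.8 at KLF5.

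In the MYC locus most high positions lay in the flanks. The upstream flank held 12 high positions of 53 (22.6%), the downstream flank 13 of 58 (22.4%) and the gene body 3 of 41 (7.32%). Over the whole list the share was 9.93%. The mean score of the upstream flank was 19.7 against a median of 16.9 over 2156 GC-matched windows, a log2 ratio of 0.23 with a spread of 0.15, at percentile 97.5 of the windows. In the downstream flank it was 20.7 against 17.3 over 1657 windows, a log2 ratio of 0.26 with a spread of 0.14, at percentile 98.9. Over the gene body it was 18.7 against 19.2, at percentile 37.4 and within the spread of 0.16. For the whole locus the mean score of 19.8 against 18.0 gave a log2 ratio of 0.139, slightly above the spread of 0.133, at percentile 95.7. With GC matched within 1 percentage point this ratio was 0.132 and no longer above that spread. When only scores from the list's median upwards were used, the log2 ratios were 0.098 for the locus, 0.15 upstream and 0.18 downstream, and only the last exceeded the spread given. The elevation was not limited to 10 kb. In the 50 kb beyond each end of the MYC locus, without the locus itself, 18.5% of 550 positions were high. In the 500 kb beyond each end the share was 13.9% of 5297. At 50 kb MYCL was close to MYC with 17.1%, MYCN had 12.5%, and the 3 KLF members had 8.09% to 8.93%. At 500 kb the other 5 members had 8.11% to 11.9%. DNA content along the chromosome, against which a regional score could be set, was not analysed here. The highest score of all 6 loci, 58.0 at GC-matched percentile 99.97, lay in the upstream MYC flank from 127725992 to 127726131, at -10169 bp from the TSS. Next in the locus were 2 positions of score 41.9 in the downstream flank, from 127750612 to 127750751 and from 127752362 to 127752501. The neighbouring lncRNA gene CASC11 has its canonical start on the other strand at -2264 bp from the MYC TSS, and its annotated span from 127686343 to 127738987 covers the upstream flank and part of MYC.

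At MYCN scores in the gene body were low and a long stretch of an intron was uncovered. The downstream flank held 6.00 positions per kb against a median of 5.30, at percentile 97.3 of 2817 windows. Its log2 ratio of 0.18 was within the spread of 0.40, although the windows' quartiles were 5 and 5.6 per kb. The gene body held 4.80 per kb against 5.57, at percentile 9.95, a log2 ratio of -0.22 also within the spread of 0.25, which was -0.51 without the scores below the list's median. The mean score of the gene body was 17.6 against 20.5, a log2 ratio of -0.22 with a spread of 0.17, at percentile 10.4, which shrank to -0.12 without the scores below the list's median. Only 1 of the 31 positions in the gene body was high, beside 9.93% of all positions in the list. The 8 in coding sequence had a median score of 14.2. A distance of 980 bp in the intron, the longest in any of the 6 loci, left 840 bp uncovered from 15943892 to 15944731 with a GC content of 41.8%. The next widest, 555 bp, lay in the 3′UTR. The 2 highest scores, 37.0 each, were at 15939652 to 15939791, at -828 bp from the TSS, and at 15950212 to 15950351 in the downstream flank. The antisense gene MYCNOS starts 698 bp inside MYCN and overlaps its promoter.

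MYCL was close to its GC-matched windows in every region. The mean score of the locus was 18.3 against 18.7, at percentile 38.7, and that of the gene body was 21.3 against 21.3, at percentile 49.9. The upstream flank was lowest, at 16.0 against 17.8 and percentile 14.2, a log2 ratio of -0.15 within the spread of 0.20. High positions made up 8 of 37 in the gene body (21.6%), beside 9.93% of all positions in the list. Of these, 5 were in the introns and 3 in the 3′UTR. The highest score, 50.6, was in the downstream flank from 39893092 to 39893231, where the GC content was only 45% and the GC-matched percentile 99.97. The next, 39.5 at percentile 99.6, lay in the 3′UTR from 39896782 to 39896921. Both stood out more for their GC content than the downstream position at the TSS. The widest distances, 440 and 400 bp, were both in the downstream flank.

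KLF2 combined a low upstream flank with 3 neighbouring high scores inside the gene. In its introns 5 positions had a median score of 41.9, and the 3 highest of the locus followed each other there at 1406, 1656 and 1846 bp from the TSS. Their scores were 56.8 (16326162 to 16326301), 46.9 (16326412 to 16326551) and 41.9 (16326602 to 16326741), at GC-matched percentiles 99.5, 98.1 and 96.1. The 6 positions in coding sequence, by contrast, had a median score of 17.3 although their median GC content was higher, 74.3% against 65%. Over the whole gene body the mean score of 22.9 was near the 22.1 of GC-matched windows, at percentile 63.8. In the upstream flank, where the divergent lncRNA gene KLF2-DT starts at -312 bp from the KLF2 TSS, the mean score was 17.0 against 19.3. This log2 ratio of -0.18 exceeded the spread of 0.13 and was at percentile 7.65 of 1206 windows, but it was -0.13, within the spread, without the scores below the list's median. Of 57 positions there 1 was high, beside 9.93% of the list. The widest distances were 480 bp in the downstream flank and 380 bp, found in the 3′UTR and again in the downstream flank.

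KLF4 had a low mean score in the gene body and no high position there. The gene body held 0 high positions of 29, and its mean score was 18.0 against 21.9, a log2 ratio of -0.28 with a spread of 0.19, at percentile 8.18. Without the scores below the list's median the ratio was -0.16, within the spread. The 8 positions in coding sequence had a median score of 21.0, and the 11 in introns 17.3. The downstream flank held 10 high positions of 48 (20.8%), while the upstream flank held 2 of 50 (4%), beside 9.93% of the list. The mean score of the downstream flank, 16.9 against 15.8, was within the spread, with a log2 ratio of 0.091, a spread of 0.15 and percentile 76.9. The highest scores were 37.0, from 107475342 to 107475481 in the downstream flank, and 33.3, from 107478772 to 107478911 in the same flank. Although the distance across its TSS was wide, 2 others in the locus were wider, 850 bp and 530 bp, both in the upstream flank. The wider of them left 710 bp uncovered from 107496072 to 107496781, with a GC content of 36.1%, whereas the uncovered DNA at the TSS had 70.3%. A lncRNA gene, ENSG00000289987, starts 1211 bp inside KLF4 on the other strand.

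KLF5 was the lowest in score. Its mean over the locus was 13.9 against 15.3 (quartiles 14.6 and 16.0), a log2 ratio of -0.15 with a spread of 0.12, at percentile 7.50 of 621 windows. The ratio was -0.12 without the scores below the list's median and -0.11 with GC matched within 4 points, both within the spread. By percentile among its windows the upstream flank was the lowest region, at 5.51. Its mean score was 13.6 against 16.4, a log2 ratio of -0.27 with a spread of 0.16. In the downstream flank none of 52 positions was high, beside 9.93% of the list. In the 1 kb around the TSS 6 positions had a mean score of 13.0 against 18.8, at percentile 15.9, a log2 ratio of -0.54 with a spread of 0.49. When only scores from the list's median upwards were used, this ratio turned to 0.0255. The highest score, 35.8 at GC-matched percentile 93.7, was 767 bp inside the gene in an intron, from 73059702 to 73059841. The next, 30.8, lay in coding sequence from 73062392 to 73062531. The widest distances, 635 and 590 bp, were in the upstream flank and in an intron.

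**Figure D4:**
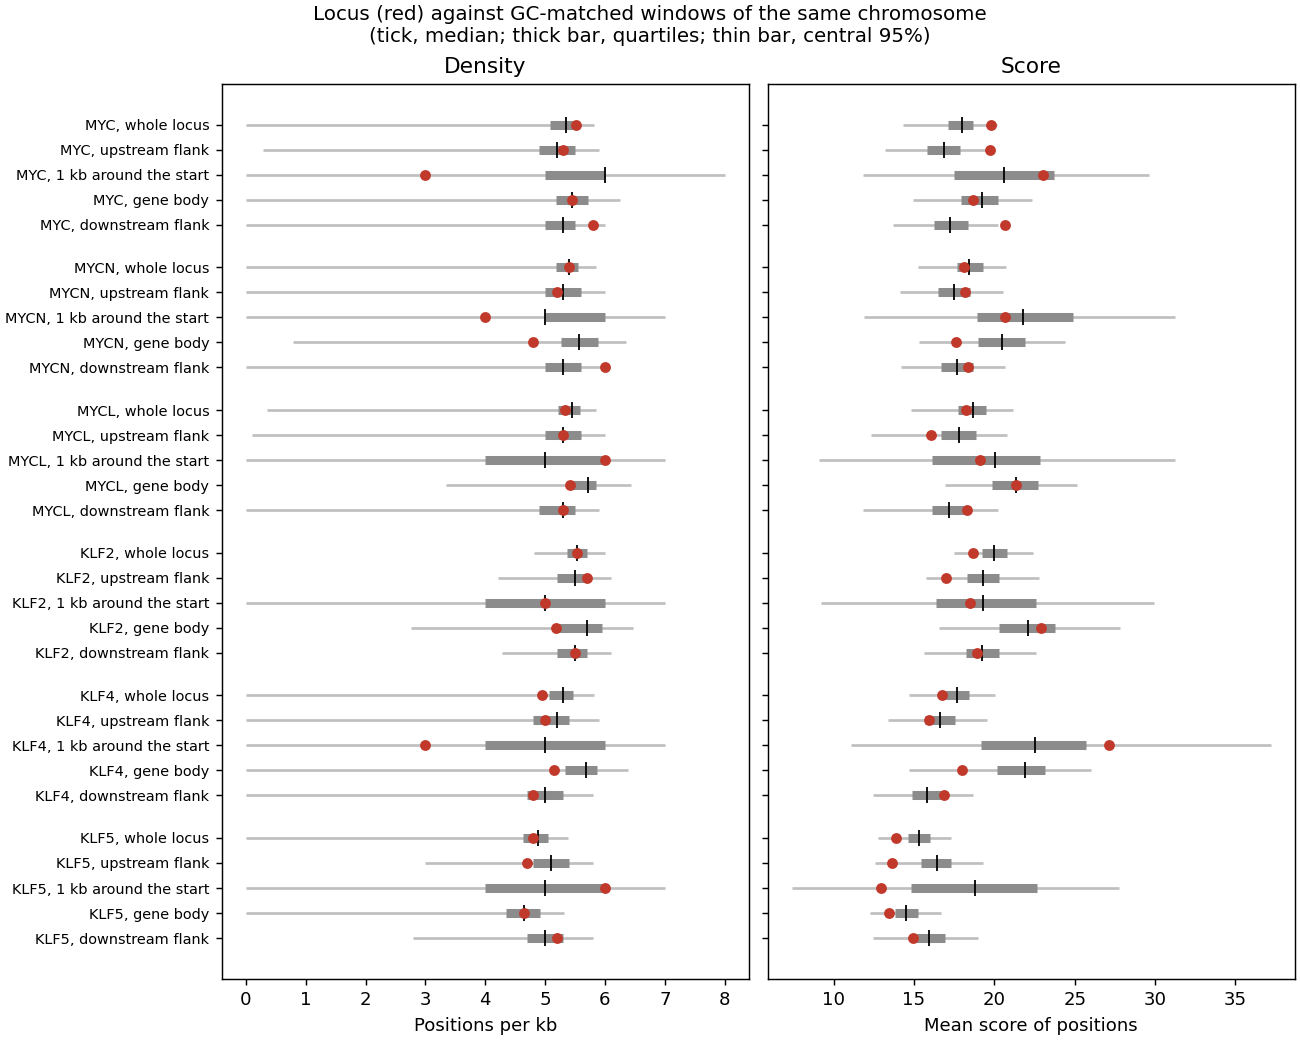
Positions per kb (left) and mean score (right) of each region of the 6 loci (red points) against GC-matched windows of the same chromosome, with the median as a tick, quartiles as a thick bar and the central 95% as a thin bar. Both MYC flanks lie near or beyond the upper end of the windows in score, and the 1 kb around the TSS of MYC and KLF4 holds 3 positions each.

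The fewest positions near the TSS were at MYC and KLF4. The 1 kb centred on the TSS held 3 positions at MYC against a median of 6.00, a log2 ratio of -1 with a spread of 0.39, at percentile 8.32 of 1934 windows. It also held 3 at KLF4 against 5.00, a log2 ratio of -0.74 with a spread of 0.45, at percentile 12.4. Without the scores below the list's median, the KLF4 ratio was -0.42 and within that spread. MYCN held 4, KLF2 5, and MYCL and KLF5 6 each, all within the spread of their windows. The MYCN ratio of -0.32, with a spread of 0.47, was -0.58 with GC matched within 4 points, with shifted windows and with windows that overlap protein-coding genes, and the KLF5 ratio turned from 0.26 to -1.58 without the scores below the list's median. Over whole loci the density was 5.52 per kb at MYC, 5.40 at MYCN, 5.33 at MYCL, 5.53 at KLF2, 4.95 at KLF4 and 4.79 at KLF5. None of these differed from its windows by more than the spread.

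The median spacing of neighbouring midpoints was near that of the chromosome in all 6 loci. The median was 170 bp at MYC and MYCN and 180 bp at the other members, with chromosome medians of 170 to 190 bp and a shortest distance of 100 bp throughout. Distances of 300 bp or more made up 15.2% of all neighbours in the list. The share was 7.28% at MYC (11 distances), 6.34% at MYCN (9), 9.86% at MYCL (14), 6.11% at KLF2 (8), 12.7% at KLF4 (16) and 16.7% at KLF5 (34). On the 6 chromosomes the shares were 15.4%, 14.6%, 13.0%, 10.3%, 13.5% and 17.7% in the same order, far above the locus at MYC and MYCN and close to it at KLF4 and KLF5. At MYC the 420 bp at the TSS was thus 1 of few wide distances and the second widest after 450 bp in the 3′UTR. Positions covered 72.6% of the bases at MYC, 71.0% at MYCN, 71.1% at MYCL, 73.2% at KLF2, 66.0% at KLF4 and 63.8% at KLF5. E-boxes, the letters that MYC and MAX bind, numbered 3 at MYC, 1 at MYCN, 2 at MYCL, 5 at KLF2, 2 at KLF4 and 6 at KLF5. Of these, 2, 1, 2, 5, 1 and 3 lay inside called positions.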

How the data were processed

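The series held 10 samples, 5 MNase amounts each sequenced with 150-bp and 50-bp reads. The authors trimmed reads with Trimmomatic 0.40, aligned them to GRCh38, removed blacklisted regions, and pooled libraries and called positions in the nucMACC workflow. Per the study's methods the 50-bp runs were not pursued downstream. Which runs were pooled, the program within that workflow that called positions, and the scaling of the score are not given in the sources used here. The deposited score was taken as a signal per position of 140 bp and used without a filter. Genes came from GENCODE release 44 (the study used release 48). Midpoints were 70 bp from the interval's first base, and coordinates are 1-based. Windows were laid end to end, without unsequenced bases. Those without positions counted for the median, quartiles and percentile of density, but not for its spread or for scores. Members, lists and rules for named genes were chosen with earlier results of these data known. All members were named, with the 2 most extreme genes at each end of each list and the 2 highest scores and 2 widest distances per locus, while other values were named after they were seen. Alternatives were other GC matching, flanks, thresholds, TSSs and positions at or above the median score. Scripts, tested on simulated data, ran in Python 3.11.15 with pandas 2.3.3, NumPy 2.4.6, matplotlib 3.10.9 and SciPy 1.17.1.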

Additional observations from a re-analysis of the deposited data

How the results depend on the processing

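No paired analysis was possible because libraries were pooled without replicates, which also meant that no library could be left out. Alternatives gave 342 values for 74 results, of which 18 moved, 16 of them counts or median distances, and 1 reversed. With the most 5′ TSS of each gene, 1 member had a wide distance (28.9% of all TSSs), KLF5 at 470 bp, while MYC (240 bp) and KLF4 (270 bp) were no longer wide, and 0 a high downstream position (19.7%). When only scores from the list's median upwards were used, all 6 members were wide, as were 65.5% of all TSSs, since removing positions lengthens distances. The median spacing then was 215 bp at MYC, 190 at MYCN, 220 at KLF2, 240 at KLF4 and 310 at KLF5. In the same setting the log2 density of the MYCN gene body was -0.51 and that of the 1 kb around the KLF5 TSS -1.58, and the log2 score there reversed from -0.54 to 0.0255. High downstream positions numbered 3 by chromosome percentile without GC matching (38% of all TSSs) and 2 with GC taken over 200 bp (20.9% of all TSSs), which also gave 13 high positions at KLF2 in place of 7 (9.89% of all positions). At percentile 95, where 4.95% of all positions pass, 13 passed at MYC, 4 at MYCN, 8 at MYCL, 6 of 132 at KLF2, 6 at KLF4 and 3 at KLF5. Apart from the effect of removing positions, the cause of these changes was not tested. The unknown read depth, the single pooled list and the lack of any expression value limit every comparison.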
